A study of Mus musculus with 12 samples.

Results

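Npas4 and 9 other genes that neurons switch on with activity, Homer1, Btg2, Ier2, Ptgs2, Rgs2, Nptx2, Ccn1, Trib1 and Plk2, were examined in chromatin accessibility maps of activated neurons from mice given fear extinction training (EXT) and from retention controls (RC). The 10 genes were taken by name out of 21883 protein-coding genes in the RefSeq table of the mouse build GRCm38.p6, the same build as mm10. For each gene, the accessible regions were all peaks that overlapped its RefSeq span or the 10 kb on either side, called the window below. Accessibility was measured by ATAC-seq, in which a transposase cuts open DNA. All mice were C57BL/6 males of 10 to 12 weeks fear-conditioned with 3 tone and shock pairings. On the next day EXT mice heard 60 tones in another context, while RC mice spent as long there without tones, and the infralimbic prefrontal cortex was taken directly afterwards. Each library was made from 50000 cells sorted for the neuronal protein NeuN and for Arc, itself the product of an activity-induced gene, out of the tissue of 5 pooled mice, so cells of both groups had been selected as recently active. In such a pool, a region open in fewer cells and a region less open in each cell cannot be told apart.

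Stimulated neurons transcribe a first wave of genes within minutes, through factors such as CREB and SRF that are already in place at their promoters and enhancers. Some of these genes encode transcription factors, among them Npas4, a neuronal basic helix-loop-helix PAS factor that pairs with ARNT proteins and is induced by calcium entry. Others encode effectors that act directly at synapses or in signalling, such as the scaffold Homer1 and the secreted pentraxin Nptx2. CREB binds the cyclic AMP response element (CRE), the palindrome TGACGTCA, and also its core TGACG alone.

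The promoter sequences of Npas4, Btg2, Homer1, Plk2 and Rgs2 are shown because each held CRE cores that lay under a peak in every list that reached the gene. Each is the RefSeq sequence of the 250 bases before the annotated start, 5′ to 3′ on the strand of the gene, build GRCm38.p6. Capitals mark each CRE core TGACG, which reads CGTCA where it lies on the other strand, and the palindrome TGACGTCA where both meet. A further core of Plk2 begins 22 bases after its start and is not in the bases shown.
Npas4, chr19:4989972-4990221, minus strand: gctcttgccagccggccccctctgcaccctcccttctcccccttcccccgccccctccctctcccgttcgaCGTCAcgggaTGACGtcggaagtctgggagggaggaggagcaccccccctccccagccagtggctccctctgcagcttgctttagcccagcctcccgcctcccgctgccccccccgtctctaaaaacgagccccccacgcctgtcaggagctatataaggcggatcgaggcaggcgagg
Btg2, chr1:134079156-134079405, minus strand: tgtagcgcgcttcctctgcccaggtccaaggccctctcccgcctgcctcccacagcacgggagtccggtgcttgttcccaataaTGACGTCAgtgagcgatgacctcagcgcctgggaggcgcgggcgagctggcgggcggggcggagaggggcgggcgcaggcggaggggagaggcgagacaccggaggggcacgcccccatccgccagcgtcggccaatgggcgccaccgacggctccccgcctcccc
Homer1, chr13:93303507-93303756, plus strand: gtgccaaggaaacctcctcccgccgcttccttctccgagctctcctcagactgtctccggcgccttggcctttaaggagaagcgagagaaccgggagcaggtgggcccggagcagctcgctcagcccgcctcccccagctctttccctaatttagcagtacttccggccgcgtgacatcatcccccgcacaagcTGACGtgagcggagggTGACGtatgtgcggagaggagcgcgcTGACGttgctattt
Plk2, chr13:110394794-110395043, plus strand: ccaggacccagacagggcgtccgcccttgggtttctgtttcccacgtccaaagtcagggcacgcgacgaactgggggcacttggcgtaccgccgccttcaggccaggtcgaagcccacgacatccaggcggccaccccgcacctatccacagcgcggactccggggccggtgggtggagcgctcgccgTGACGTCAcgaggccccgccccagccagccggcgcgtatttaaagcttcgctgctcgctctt
Rgs2, chr1:144004150-144004399, minus strand: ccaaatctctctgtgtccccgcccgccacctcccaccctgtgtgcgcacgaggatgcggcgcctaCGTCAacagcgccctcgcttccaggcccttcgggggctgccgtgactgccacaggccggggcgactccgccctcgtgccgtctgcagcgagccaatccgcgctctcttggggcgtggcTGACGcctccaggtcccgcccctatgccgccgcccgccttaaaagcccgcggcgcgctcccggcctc

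Peak lists of 2 EXT and 3 RC libraries were used, with 57.7 M to 73.8 M tags each. The lists of EXT replicate 1, EXT replicate 2 and RC replicate 3 covered the whole genome with 80735, 123375 and 97961 peaks, in that order; EXT replicate 2 had the fewest tags and the most peaks. The RC replicate 1 list, as held here, ended on chromosome 1 at position 166286196 and so reached Btg2, Ptgs2 and Rgs2, and the RC replicate 2 list ended at position 37624379 and reached none of the 10 genes. RC replicate 3 was thus the sole RC library for the other 7 genes, and no test between the groups was possible there. The sorted cells were examined by promoter peaks of marker genes, where a promoter is the 250 bases before to 50 bases after an annotated start. Of 3 pan-neuronal markers, 2 had a peak in EXT replicate 1, 3 in EXT replicate 2 and 2 in RC replicate 3, and the one without was Rbfox3, the gene for NeuN. All 3 excitatory neuron markers in the promoter table had a peak in each complete list, as did 2 of 5 inhibitory neuron markers (Lhx6 and Dlx1, but not Gad1, Gad2 or Slc32a1), while none of 4 astrocyte, 2 oligodendrocyte, 3 microglia and 4 endothelial markers had one in any of them. Within 1 kb of the start, 1 of the 4 endothelial markers had a peak in EXT replicate 1, 2 in EXT replicate 2 and 2 in RC replicate 3 (Cldn5 and Kdr), and no astrocyte, oligodendrocyte or microglia marker had one. Fold enrichment is the authors' ratio of tags at a peak's summit to the background around it in the same library. It describes a peak within its own list, as does the percentile of that fold among all peaks of the list, and neither shows a change between lists. A region without a peak is one that did not pass the authors' threshold, which does not show that it was closed.

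The promoters of these genes were accessible in both groups. Of the 7 genes with an annotated start in the promoter table, 6 had a promoter peak in EXT replicate 1, 7 in EXT replicate 2 and 6 in RC replicate 3. Of 17491 protein-coding genes, 44.9% had a promoter peak in EXT replicate 1, 53% in EXT replicate 2 and 46.8% in RC replicate 3. The RC replicate 1 list held a promoter peak for all 3 genes it reached, where 59.1% of the 755 protein-coding genes in its reach had one. Npas4, Homer1, Btg2, Ptgs2, Rgs2 and Plk2 had a promoter peak in every list that reached them, as 41.8% of protein-coding genes did in the 3 complete lists. Ccn1 was the exception, with a promoter peak in EXT replicate 2 and in neither other complete list, a pattern held by 5.43% of protein-coding genes. None of the 7 had a promoter peak in RC replicate 3 alone, where 0.612% of protein-coding genes did. Ier2, Nptx2 and Trib1 are not in the promoter table, and their peaks are given by distance from the ends of the gene.

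**Figure D1:**
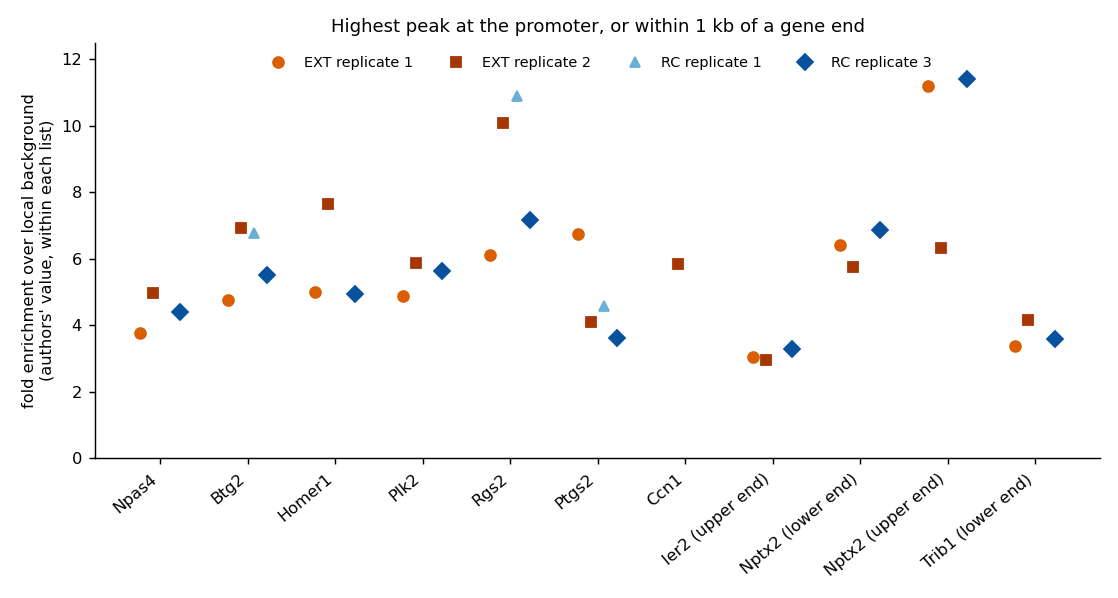
Fold enrichment over local background (y axis, the authors' values) of the highest peak on the promoter of 7 genes, or within 1 kb of a gene end for Ier2, Nptx2 and Trib1 (x axis), with 1 point per library: EXT in orange and brown, RC in light and dark blue. At Rgs2 the values run from 6.11 to 10.9, at Npas4 from 3.76 to 4.98, and RC replicate 1 is shown at Btg2, Rgs2 and Ptgs2, which its list reached.

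Of the transcriptional regulators, Npas4 carried accessible regions from about 12 kb upstream of its start to about 7 kb downstream. The highest peak of its window was not at the promoter but about 12 kb upstream of the annotated start, and this held in all 3 lists. That upstream region (chr19:5001624-5002462) had a fold of 4.61 in EXT replicate 1, 8.47 in EXT replicate 2 and 6.11 in RC replicate 3. Its percentile was 66.7 in EXT replicate 1, 87.2 in EXT replicate 2 and 80.3 in RC replicate 3, so that RC replicate 3 lay between the EXT libraries. Its summits fell within 32 bp of each other. It lies inside the RefSeq span of Npas4 (chr19:4984353-5003439), which reaches beyond the start used here, and no other gene of the table overlaps the window.

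The Npas4 promoter peak covered all 300 bases of the promoter in each of the 3 lists. Its fold was 3.76 in EXT replicate 1, 4.98 in EXT replicate 2 and 4.39 in RC replicate 3. Its percentile was 51.3 in EXT replicate 1, 60.4 in EXT replicate 2 and 59.9 in RC replicate 3, near the middle of each list. The summit lay 169 bp upstream of the start in EXT replicate 1 and 153 bp upstream in EXT replicate 2, against 92 bp downstream in RC replicate 3. The CRE cores of the promoter begin 179 and 169 bases before the start. Both lay inside the peak in every list, and within 24 bp of the summit in the EXT libraries, against 269 and 259 bp from it in RC replicate 3. The summit is a single position in a peak of 505 to 539 bp, and with 1 RC library the difference was not tested. A weak region 6.45 to 7.16 kb downstream was also in all 3 lists, with folds of at most 3.52.

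Between the promoter and the far upstream region, Npas4 had further peaks. A region about 4.2 kb upstream (chr19:4994064-4994356) was in all 3 lists, with folds of 2.71 in EXT replicate 1, 3.17 in EXT replicate 2 and 2.28 in RC replicate 3. These were low values within each list, with percentiles of 12 in EXT replicate 1, 21.5 in EXT replicate 2 and 2.84 in RC replicate 3. A region about 3.2 kb upstream (chr19:4992994-4993325) had a peak in both EXT lists and none in RC replicate 3. Its fold was 4.89 in EXT replicate 2, with 122 tags at the summit and a −log10 q of 42.3, but 2.23 in EXT replicate 1, with 33 tags and a −log10 q of 2.91, where it stood at the 1.26th percentile. The nearest RC replicate 3 peak lay 776 bp away. Of the 69 regions in the 10 windows this was the single one held by both EXT lists and not by RC replicate 3, where 4.25% of regions near protein-coding genes had that pattern. At least 1 such region lay in the windows of 20.3% of protein-coding genes, against 1 of the 10 genes here. With a threshold of 5 on −log10 q this region was lost from EXT replicate 1, and the region 4.2 kb upstream took its place as the single one of its kind because it fell out of the RC replicate 3 list. Asking for 1 EXT list alone gave 25 such regions without EXT replicate 1 and 9 without EXT replicate 2. Of these, 24 were in EXT replicate 2 alone, 18 of them in the Homer1 window, and 8 in EXT replicate 1 alone. They made up 34.8% and 11.6% of the 69 regions, where 28.2% and 9.81% of regions near protein-coding genes were in EXT replicate 2 alone and EXT replicate 1 alone.

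**Figure D2:**
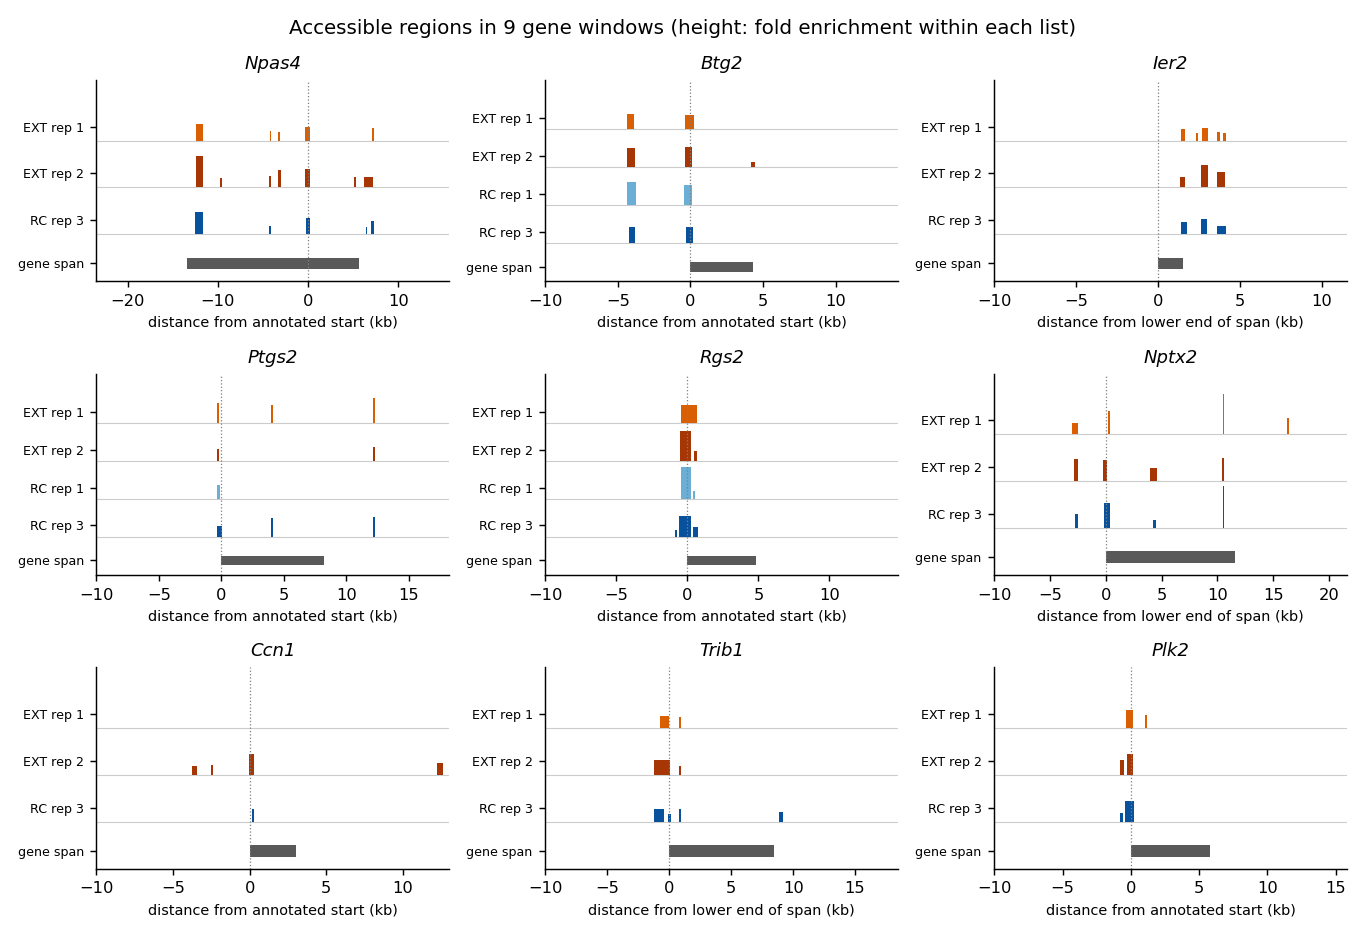
Accessible regions in the windows of 9 genes, with distance in kb on the x axis from the annotated start (upstream to the left) or, for Ier2, Nptx2 and Trib1, from the lower end of the span; each row is a library, each block a peak with its height in proportion to fold enrichment, and the grey bar the RefSeq span. Npas4 shows the tall region about 12 kb upstream in all 3 rows, and Btg2 a second region about 4.1 kb upstream in all 4.

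Btg2, an antiproliferative protein that binds the CCR4-NOT complex, had the same pair of regions in every list, with another, weak peak in EXT replicate 2 (fold 1.87). Its promoter peak had a fold of 4.77 in EXT replicate 1 and 6.93 in EXT replicate 2, against 6.77 in RC replicate 1 and 5.53 in RC replicate 3. The EXT values lay on either side of both RC values. The summits, 123 and 68 bp upstream of the start in EXT replicates 1 and 2 and 64 and 99 bp upstream in RC replicates 1 and 3, were 38 to 100 bp from the CRE palindrome and its cores. The second region (chr1:134082969-134083552 in the complete lists) lay about 4.1 kb upstream, inside the lncRNA gene Gm31974. Its folds were 5.06 and 6.53 in EXT replicates 1 and 2, against 7.8 and 5.32 in RC replicates 1 and 3, as high as those of the promoter. The 4 summits fell within 20 bp. It was the higher of both regions in EXT replicate 1 and RC replicate 1, and the promoter was higher in EXT replicate 2 and RC replicate 3.

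Ier2, an immediate early nuclear protein, had 3 regions in common to all 3 complete lists, all at or beyond its upper end (chr8:84661331-84662852). At the end itself the summits lay 5 to 39 bp beyond it, with folds of 3.06 in EXT replicate 1, 2.97 in EXT replicate 2 and 3.3 in RC replicate 3. The highest peak of the window in each list lay about 1.3 kb beyond the end (chr8:84663934-84664410), with folds of 3.55 in EXT replicate 1, 6.22 in EXT replicate 2 and 4.28 in RC replicate 3. RC replicate 3 again fell between the EXT libraries. Of the 10 genes, Ier2 had the highest density of peaks in EXT replicate 1, 2.32 per 10 kb, against 1.39 in both EXT replicate 2 and RC replicate 3. With a −log10 q of at least 5 its 5 peaks in EXT replicate 1 became 3.

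Among the synaptic effectors, Homer1, a postsynaptic scaffold of metabotropic glutamate receptors with a short form induced by activity, had a strong promoter and many weak regions inside a long gene. The promoter peak at its first annotated start had a fold of 4.99 in EXT replicate 1, 7.64 in EXT replicate 2 and 4.95 in RC replicate 3, and was the highest of the window in each list. All 3 peaks began at the same base, position 93303317 of chromosome 13. Its 3 CRE cores, which begin 56, 40 and 14 bases before the start, lay inside the peak in each list. The second annotated start, at position 93308034, had no peak on its promoter in any of the 3 lists.

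Away from the promoter, most peaks in the Homer1 window were found in a single library. The window held 10 peaks in EXT replicate 1, 24 in EXT replicate 2 and 12 in RC replicate 3. Merged, these formed 35 regions, of which 3 were in all 3 lists and 18 in EXT replicate 2 alone. RC replicate 3 alone had 4 and EXT replicate 1 alone 5. Both regions that recurred away from the promoter lay within the gene. The first (chr13:93363014-93363467) had folds of 2.51 in EXT replicate 1, 3.67 in EXT replicate 2 and 3.14 in RC replicate 3. The other (chr13:93368938-93369414) had folds of 2.66 in EXT replicate 1, 3.09 in EXT replicate 2 and 3.71 in RC replicate 3. The window of 121373 bp is the longest of the 10, and EXT replicate 2 also has the longest list over the whole genome. With the 3 lists brought to equal length by −log10 q, the window held 10 peaks in EXT replicate 1, 4 in EXT replicate 2 and 9 in RC replicate 3, so that EXT replicate 2 had the fewest. With a −log10 q of at least 5 it held 5 in EXT replicate 1, 9 in EXT replicate 2 and 9 in RC replicate 3.

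**Figure D3:**
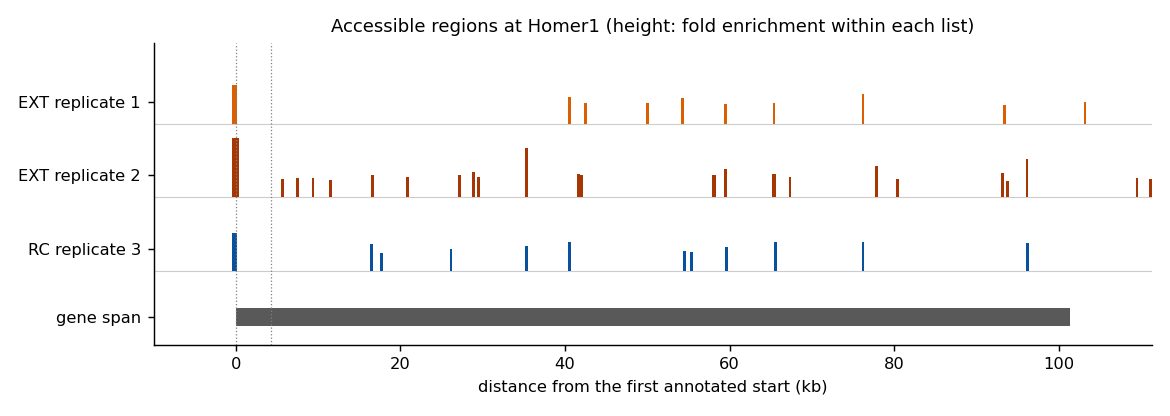
Peaks in the Homer1 window by distance from its first annotated start (x axis, kb), 1 row per library, with block height in proportion to fold enrichment within the list; dotted lines mark both annotated starts, and narrow blocks are widened so that they can be seen. The promoter block stands in all 3 rows, while most blocks within the gene stand in 1 row; the lists as deposited hold 10 peaks in EXT replicate 1, 24 in EXT replicate 2 and 12 in RC replicate 3, and with lists of equal length 10 in EXT replicate 1, 4 in EXT replicate 2 and 9 in RC replicate 3.

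Nptx2, also called Narp, a secreted protein that gathers AMPA receptors at excitatory synapses, had 4 peaks in each complete list. A region about 2.6 kb below its lower end (chr5:144542881-144543383) had folds of 3.04 in EXT replicate 1, 5.97 in EXT replicate 2 and 3.9 in RC replicate 3, with summits within 12 bp. At the lower end itself (chr5:144545658-144546255) the folds were 6.42 in EXT replicate 1, 5.75 in EXT replicate 2 and 6.87 in RC replicate 3. Here the EXT replicate 1 and EXT replicate 2 peaks did not overlap each other and were joined by the wider RC replicate 3 peak, with summits 220 bp inside the end in EXT replicate 1, 101 bp outside it in EXT replicate 2 and 223 bp inside it in RC replicate 3. The highest peak in each list lay near the upper end (chr5:144556261-144556507), with folds of 11.2 in EXT replicate 1, 6.34 in EXT replicate 2 and 11.4 in RC replicate 3. Its bounds were the same, 160 bp apart, in EXT replicate 1 and RC replicate 3, and 247 bp wide in EXT replicate 2. A width of 160 bp was the commonest in every list. RC replicate 3 shared such exact bounds with an EXT list at 4 of the 6 places in the 10 windows where 2 lists gave the same peak.

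Of the signalling genes, Rgs2, which limits signalling of Gq-coupled receptors, had the promoter with the highest fold of these genes in EXT replicate 2 and both RC lists that reached it. Its fold was 6.11 in EXT replicate 1 and 10.1 in EXT replicate 2, against 10.9 in RC replicate 1 and 7.16 in RC replicate 3. These stood at the 82.4th and 92.3rd percentile in the EXT lists and at the 91.7th and 87.4th in the RC lists. The groups overlapped. The peak was wide, from 679 bp in RC replicate 1 to 1129 bp in EXT replicate 1. In EXT replicate 1 it took in a shoulder downstream of the start that the other 3 lists called as a separate peak, with folds of 3.22 in EXT replicate 2, 2.8 in RC replicate 1 and 3.39 in RC replicate 3. RC replicate 3 alone had a further weak peak 725 bp upstream, with a fold of 2.31. The promoter summits lay 61 to 117 bp upstream of the start, and the CRE cores begin 185 and 67 bases before it.

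Plk2, a polo-like kinase that weakens synapses during sustained activity, had the promoter peak whose summit varied least, within 9 bp over 3 lists. Its summits lay 55 bp upstream of the start in EXT replicate 1, 49 bp in EXT replicate 2 and 58 bp in RC replicate 3. That put them 3 bp (EXT replicate 1), 9 bp (EXT replicate 2) and 0 bp (RC replicate 3) from the middle of the CRE palindrome, which begins 62 bases before the start. The folds were 4.87 in EXT replicate 1, 5.89 in EXT replicate 2 and 5.64 in RC replicate 3, all between the 70.6th and 76.1st percentile. A weaker region just upstream (chr13:110394215-110394564) had a fold of 3.99 in EXT replicate 2 and 2.43 in RC replicate 3. EXT replicate 1 had instead a peak 161 bp wide about 1.1 kb inside the gene, with a fold of 3.7.

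Ptgs2, the inducible cyclooxygenase COX-2, had peaks with few tags, which were narrow except on the promoter in the RC lists. The promoter peak had folds of 6.76 in EXT replicate 1 and 4.09 in EXT replicate 2, against 4.59 in RC replicate 1 and 3.61 in RC replicate 3, on 41 and 22 tags in the EXT lists and 29 and 24 in the RC lists. It covered 44 of the 300 promoter bases in both EXT lists, 151 in RC replicate 1 and 300 in RC replicate 3. The promoter peaks of both EXT lists had the same bounds and were 160 bp wide, against 267 bp in RC replicate 1 and 416 bp in RC replicate 3. With lists of equal length EXT replicate 2 lost its promoter peak, and with peaks wider than 160 bp both EXT lists did. The CRE core of this promoter begins 14 bases after the start, and lay inside the peak in RC replicate 3 and outside it in the other 3 lists. The promoter peak also overlaps the upper end of the lncRNA gene Ptgs2os. About 12.2 kb downstream of the start, both EXT lists and RC replicate 3 had a peak of 150 to 161 bp, the highest of the window in each of them, with folds of 8.37 in EXT replicate 1, 4.62 in EXT replicate 2 and 6.79 in RC replicate 3. RC replicate 1 had none there.

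Trib1, a pseudokinase that brings substrates to the ubiquitin ligase COP1, had 2 regions in all 3 complete lists, both at its lower end. The wider (chr15:59647454-59648784) had folds of 3.38 in EXT replicate 1, 4.15 in EXT replicate 2 and 3.6 in RC replicate 3, with summits within 26 bp, about 0.5 kb outside the end. It was 783 bp in EXT replicate 1 and 1284 bp in EXT replicate 2, while RC replicate 3 divided it into peaks of 811 and 265 bp. The narrower was 150 bp wide with the same bounds in both EXT lists and 160 bp in RC replicate 3, with folds of 2.98 in EXT replicate 1, 2.53 in EXT replicate 2 and 3.6 in RC replicate 3. RC replicate 3 alone had a weak peak 471 bp beyond the upper end, with a fold of 2.76.

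Ccn1, a secreted matrix protein that binds integrins, was the one of the 10 genes with no region in all 3 complete lists. Its window held 0 peaks in EXT replicate 1, 4 in EXT replicate 2 and 1 in RC replicate 3. With lists of equal length, or with a −log10 q of at least 5, EXT replicate 2 held 1 peak there, the one at the start. No other of the 10 genes lacked a peak in its window in a list that reached it. The EXT replicate 2 peak at the start had a fold of 5.85 on 55 tags, with its summit 192 bp downstream of the start. The RC replicate 3 peak had a fold of 3.5 on 26 tags, and its summit lay 258 bp downstream. These 2 peaks overlapped, but the second was 150 bp wide and did not reach the promoter. The CRE core of this promoter, 58 bases before the start, lay in no peak. The lncRNA gene Gm17501 begins at position 145650077 of chromosome 3, next to the start of Ccn1, so the peak cannot be assigned to one gene.

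At least 1 peak was found in the windows of 9 of the 10 genes in EXT replicate 1, 10 in EXT replicate 2 and 10 in RC replicate 3, where the shares of protein-coding genes were 76.6% in EXT replicate 1, 80.8% in EXT replicate 2 and 78.4% in RC replicate 3. RC replicate 1 had a peak in all 3 windows it reached, where 88.4% of genes in its reach had one. The median density over the windows, in peaks per 10 kb, was 0.823 in EXT replicate 1, 1.25 in EXT replicate 2 and 1.14 in RC replicate 3. For all protein-coding genes the median was 0.493 in EXT replicate 1, 0.76 in EXT replicate 2 and 0.611 in RC replicate 3. In RC replicate 1 it was 0.806, against 0.711 for genes in its reach. Counted per window, the median was 2.5 peaks in EXT replicate 1, 3.0 in EXT replicate 2 and 3.0 in RC replicate 3. For all protein-coding genes it was 2.0, 3.0 and 3.0 in the same order. RC replicate 1 had a median of 2.0 peaks, against 4.0 for genes in its reach. Of the 69 merged regions, 21 were in all 3 complete lists, or 30.4%, where 27.2% of the 124602 regions near protein-coding genes were. EXT replicate 2 alone held 24 of the 69, or 34.8%, where 28.2% did so near protein-coding genes. EXT replicate 1 alone held 8, or 11.6%, where 9.81% did, and RC replicate 3 alone held 6, or 8.7%, where 11.5% did. RC replicate 3 shared 3 regions with EXT replicate 1 alone, or 4.35%, where 6.3% did so near protein-coding genes, and 6 with EXT replicate 2 alone, or 8.7%, where 12.8% did. Homer1 gave 18 of the 24 regions of EXT replicate 2 alone. Outside Homer1, 6 of 34 regions were in EXT replicate 2 alone, or 17.6%, and 18 of 34 were in all 3 lists. In 9 of the 21 recurring regions the summits of all libraries lay within 50 bp, and the median range was 59 bp.

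**Figure D4:**
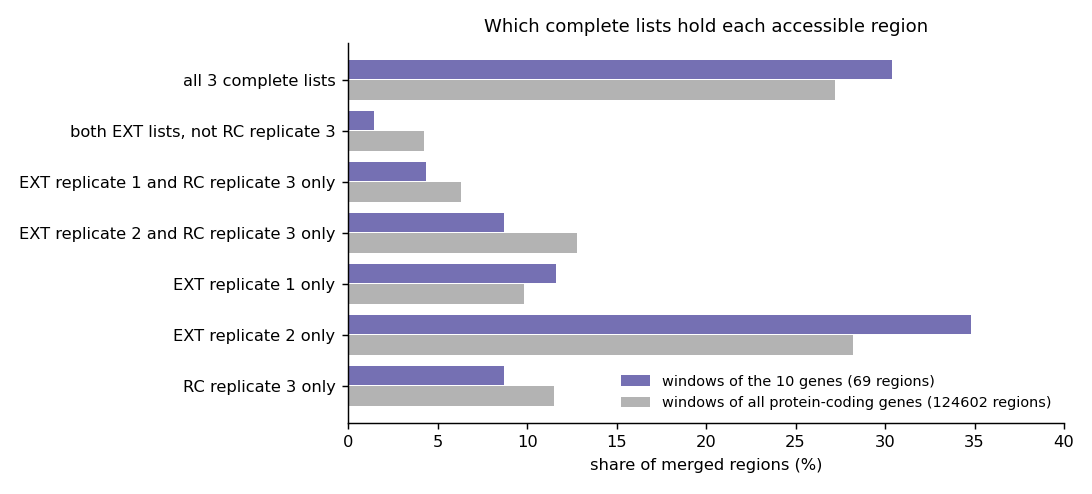
Share of merged regions (x axis, %) by which of the 3 complete lists hold them (y axis), for the windows of the 10 genes (purple) and of all protein-coding genes (grey). Regions in all 3 lists made up 30.4% of 69 and 27.2% of 124602, and regions in both EXT lists but not RC replicate 3 made up 1.45% and 4.25%.

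Btg2, Ptgs2 and Rgs2 were reached by more than 1 RC list. With flanks of 10 kb, neither peaks nor peak-covered bases per window differed between EXT and RC libraries by more than the spread between libraries. Single peaks, such as the one on the Ptgs2 promoter, were described above and not tested. Over the windows of Btg2, Ptgs2 and Rgs2 there were 2.0 peaks per window in EXT replicate 1 and 2.333 in EXT replicate 2, against 1.667 in RC replicate 1 and 2.667 in RC replicate 3. The means were 2.17 ± 0.236 peaks in EXT and 2.17 ± 0.707 in RC libraries (SD, n = 2 each), and the RC values lay outside the EXT values on both sides (two-sided exact permutation p = 1.0). Peaks covered 899.0 and 869.3 bp per window in EXT replicates 1 and 2, against 728.0 and 990.0 bp in RC replicates 1 and 3. The means were 884.2 ± 21.0 bp in EXT and 859.0 ± 185.0 bp in RC libraries (two-sided exact permutation p = 1.0, n = 2 each). With 2 libraries against 2, no p under 0.333 was possible. An RC replicate 1 peak with a fold of 3.67 (chr1:150118374-150118686) lay 140 bp outside the Ptgs2 window and counted in neither measure. The difference in bases was -106 bp without RC replicate 1 and 156 bp without RC replicate 3. With flanks of 25 kb the groups did not overlap: peaks covered 1373.0 and 1487.0 bp per window in EXT replicates 1 and 2, against 1747.0 and 1499.0 bp in RC replicates 1 and 3. That difference of -193.0 bp had the smallest p this design allows (two-sided exact permutation p = 0.333, n = 2 each). The share of other genes without overlap between the groups at these flanks is not given, so no trait of these genes is read from it. Each library is a pool of mice, and the labels say no more of how the pools were kept apart. Technical and biological spread between libraries thus cannot be told apart.

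CRE cores were found in a promoter of each of the 7 genes in the promoter table. Those of Homer1 lay at the first of its annotated starts. Over 17491 protein-coding genes, 23.8% of promoters of the same 300 bases hold at least 1. Matches were exact, on both strands, and each TGACGTCA palindrome counts as 2 overlapping cores. Homer1 and Plk2 each held 3 cores, and 1.41% of promoters hold at least 3. Npas4, Btg2 and Rgs2 each held 2, those of Btg2 within 1 palindrome, and 6.42% of promoters hold at least 2. Ptgs2 and Ccn1 held 1 each. The palindrome itself was in Btg2 and Plk2 and in 2.34% of promoters. The core TCGTG, which the NPAS4 dimer prefers, was in Rgs2 and Plk2 and in 17.7% of promoters. In Plk2 one of its matches overlaps the CRE palindrome. The E-box CACGTG was in Ptgs2, where it overlaps the CRE core, and in 7.9% of promoters, and TATAAA was in Ccn1 and in 13.3%. The AP-1 site TGANTCA and the CArG box bound by SRF had no exact match in the promoters of the 7 genes. Of all promoters, 7.08% and 1.54% had one. A match describes the letters of this window and is not evidence that a factor was bound.

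**Figure D5:**
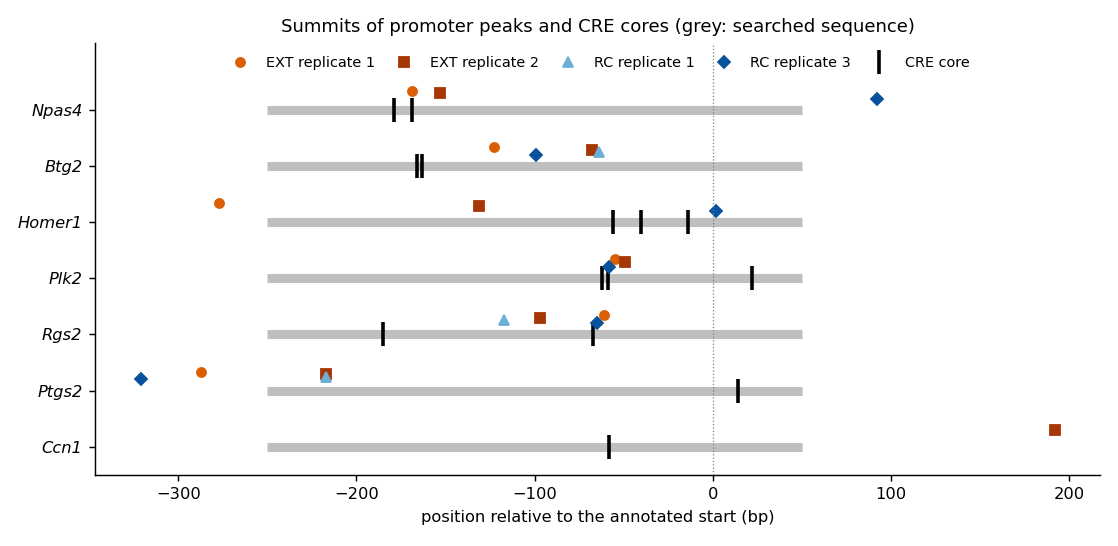
Positions of CRE cores (black ticks) and of promoter peak summits (1 symbol per library, EXT in orange and brown, RC in light and dark blue) relative to the annotated start (x axis, bp) for the 7 genes in the promoter table; the grey bar is the sequence searched. At Plk2 the 3 summits lie 49 to 58 bp upstream of the start, on the palindrome, and at Npas4 the EXT summits lie 153 and 169 bp upstream, against 92 bp downstream in RC replicate 3.

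Of 30 other activity-induced genes in the promoter table, 23 had a promoter peak in EXT replicate 1 (76.7%), 26 in EXT replicate 2 (86.7%) and 24 in RC replicate 3 (80%), and 23 had one in all 3 lists, among them the growth factor gene Bdnf with any of its 7 annotated starts. Fosl2, Jund, Nr4a2 and Cebpb had no promoter peak in any of the 3, and are named because of these values. Within 1 kb of the start, Fosl2, Jund and Cebpb had a peak in all 3 lists and Nr4a2 in none. Of 21 paralogs and partners of the 10 genes, 11 had a promoter peak in EXT replicate 1 (52.4%), 15 in EXT replicate 2 (71.4%) and 10 in RC replicate 3 (47.6%). The shares of all protein-coding genes were 44.9%, 53% and 46.8% in the same order. In all 3 lists there were 9 of the 21, among them Arnt, a partner of Npas4, where 41.8% of protein-coding genes had a promoter peak in all 3. In none of the 3 were Npas1 and Npas3, relatives of Npas4, Homer2, a relative of Homer1, Btg4, a relative of Btg2, and Ptgs1, the constitutive counterpart of Ptgs2, again named after their values were seen. Within 1 kb of the start, Homer2 had a peak in all 3 lists and Npas1 in EXT replicate 2 and RC replicate 3. Ier5 is in both lists of genes. A promoter peak in the EXT lists but not RC replicate 3, a pattern of 1.93% of protein-coding genes, was found for 0 of the 7, 0 of the 30 and 1 of the 21, the Trib1 relative Trib3, which had a peak within 1 kb of its start in all 3 lists.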

How the data were processed

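ATAC-seq peak lists of 2 EXT and 3 RC libraries were used; EXT replicate 3 and the 6 lncRNA capture libraries were not analysed here. Each library's peaks were called separately by the authors with MACS2 2.2.4, per the file headers, with no control, a tag shift of -75 bp, an extension to 150 bp, duplicates kept and a q cutoff of 0.05. Duplicate tags can raise narrow peaks. The deposited pileup is a signal in whole tags at the summit, fold enrichment the authors' ratio to local background, and the deposited −log10 p and q values rest on that background. Per the submitters' processing notes the build was mm10; they list HISAT2 and BWA without saying which aligned these reads. Incomplete last lines of 2 lists were dropped. Groups and replicate numbers follow the sample titles; the list deposited for EXT replicate 2 carries the number 3 in its own name, and the title was followed.

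Peaks counted by an overlap of at least 1 bp with the span plus 10 kb, and peaks of the complete lists that overlapped were merged into regions. Gene positions and promoters came from RefSeq (GRCm38.p6). The lists hold no counts outside peaks, so errors are SDs over libraries, compared by two-sided exact permutation. Overlap counts were tested on simulated data. Python 3.11.15, pandas 2.3.3 and NumPy 2.4.6 were used. All 10 genes were named, with every promoter peak and the highest peak of each window in each list. Regions held by both EXT lists and not by RC replicate 3, or the reverse, were also given. In the Homer1 window those of RC replicate 3 alone were counted only. The genes and lists were chosen with earlier results of these data known. Alternatives were lists of equal length, a stricter −log10 q threshold of 5, the summit in place of the peak, peaks wider than 160 bp, flanks of 5, 25 and 0 kb, 1 kb around the start, a 50% overlap, and leaving out each library.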

Additional observations from a re-analysis of the deposited data

How the results depend on the processing

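The numbers of promoter peaks stayed within 1.5 times under each alternative tried, in each of the 4 lists; with the summit required inside the promoter they were 4 in EXT replicate 1, 6 in EXT replicate 2 and 4 in RC replicate 3, and within 1 kb of the start Ccn1 had a peak in RC replicate 3 too, making 7. The difference in peaks per window on chromosome 1 ranged from -0.5 to 0.5 when each library was left out. The difference in bases under peaks, 25.2 bp, turned to -14.0 at a −log10 q of at least 5 and -40.7 with lists of equal length. It was -3.17 with peaks wider than 160 bp. With flanks of 25 kb it was -193.0 and the groups did not overlap, but the share of other genes without overlap is not given. It ranged from -106 to 156 when each library was left out, negative without RC replicate 1. The cause was not tested. The single region of the EXT pair became 3 with flanks of 25 kb, which take in more sequence. For these flanks the share near all protein-coding genes is not given. The count became 9 to 25 when 1 EXT list was left out, which drops a condition. Of 33 counts of peaks per gene and list, 24 stayed within 1.5 times at a −log10 q of at least 5, 26 with lists of equal length (Homer1 in EXT replicate 2 had 4 in place of 24), 26 with peaks wider than 160 bp, 21 with flanks of 25 kb and 18 with the span alone. No paired analysis was possible because the EXT and RC lists that reach the same genes share no more than 1 replicate number. The lists give no tags where no peak was called.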
